A study of Mus musculus with 3 samples.

Results

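Fibroblasts named for the matrix genes Dpt and Mfap5, of which neither was required, were described in a Drop-seq series of adult C57BL/6 mouse liver. In this method single cells are captured in droplets and each transcript is tagged with a unique molecular identifier (UMI). The series held 3 libraries: control livers, which the labels call sham surgery with sacrifice after 1 day, and livers taken 1 day and 7 days after irreversible electroporation (IRE), a series of electric pulses that kills the cells of a liver area. According to the methods of the study, the tissue of 3 livers was pooled for each library. Tissue was taken with a 4 mm punch from the electroporated area, or from the same non-injured area in controls, and was dissociated with dispase, collagenase and DNase. With 1 library per condition no test between conditions was possible, so that intervals below are exact 95% intervals and cover counting error only. The cells were chosen by measured values: barcodes with at least 200 detected genes and at least 1 UMI of 3 or more of the 7 genes Dpt, Mfap5, Lum, Dcn, Col14a1, Fbn1 and Col3a1. Barcodes with 2 or more of the 5 genes Postn, Aspn, Cthrc1, Ptn and Tnc, or with 2 or more of the 5 genes Upk3b, Msln, Nkain4, Lgals7 and Angptl7, were left out. This rule found 177 of 25263 cells, of which 167 came from control livers, 9 from livers 1 day after injury (p.i.) and 1 from those of day 7.

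Fibroblasts make and maintain the fibrous matrix of an organ. In the liver they are known from the portal tracts, the walls of larger vessels and the capsule, while stellate cells take the fibroblast role within the lobule. Dermatopontin (Dpt), decorin (Dcn) and lumican (Lum) bind collagen fibrils, collagen XIV (Col14a1) lies on the fibril surface, collagen III (Col3a1) is a fibril former, and fibrillin 1 (Fbn1) and Mfap5 are components of the microfibrils that surround elastic fibres. The excluded genes mark other matrix cells: Postn, Aspn, Cthrc1, Ptn and Tnc are known from activated, matrix-depositing fibroblasts, and Upk3b and Msln from mesothelial cells, the epithelium that covers the liver surface.

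The 3 libraries held 10386, 9253 and 5624 cells in the order above, with medians of 595, 509 and 456.5 UMIs per cell. The fibroblasts had medians of 784 UMIs in the control (range 277 to 5258) and of 614 at 1 day p.i. (range 367 to 15584), and the cell at 7 days p.i. had 1633. In the control fibroblasts a median of 13.3% of the UMIs were mitochondrial, against 18.5% over all control cells, and 37 fibroblasts exceeded 20%. The libraries differed in this measure, with medians over all cells of 23.1% at 1 day and 3.30% at 7 days p.i. Libraries shared barcodes among their cells, 68 between control and 1 day, 44 between control and 7 days and 149 between 1 day and 7 days p.i. No barcode was a fibroblast in more than 1 library.

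Cells that met the fibroblast rule took a larger share of the control cells than of the cells after injury. They made up 1.61% of control cells (167 of 10386, exact binomial interval 1.37 to 1.87%), 0.0973% of cells at 1 day p.i. (9 of 9253, 0.0445 to 0.185%) and 0.0178% at 7 days p.i. (1 of 5624, 0.00045 to 0.0990%). The intervals of the injured libraries lay below that of the control and overlapped each other. The name fibroblast is uncertain for the cells after injury, as described below. Without cells carrying 3 or more markers of another class, 139, 1 and 0 cells remained in the libraries in the same order. The 7 required genes had the same order of libraries over all barcodes. The rule used these genes, so that their sums are a description and no separate support. In the control the fibroblasts held 34.6% of these UMIs. Summed over all barcodes, the 7 required genes reached 1169 CPM, UMIs per 1000000 UMIs, in the control, with a Poisson interval of 1148 to 1190, 62.5 CPM at 1 day p.i. (57.3 to 68.0) and 10.9 CPM at 7 days p.i. (8.10 to 14.4). Col1a2, a fibrillar collagen chain that the rule did not use, was found in 961, 39 and 10 cells of the libraries in the same order, or 9.25%, 0.421% and 0.178%. Col1a1, its partner chain, was found in 556, 14 and 8 cells, or 5.35%, 0.151% and 0.142%. The other matrix cells were likewise rare after injury: the gate of Postn or Aspn matrix cells, with 3 or more of the 7 genes and 2 or more of the Postn set, held 89 control cells and 0 in the injured libraries, where a count of 0 allows shares of up to 0.0324% and 0.0533%. The mesothelial gate, with 2 or more of the mesothelial set, held 92, 5 and 0 cells. Fewer fibroblasts in the tissue, fewer that came through dissociation and more cells of other types in the same suspension cannot be told apart in these shares.

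**Figure D1:**
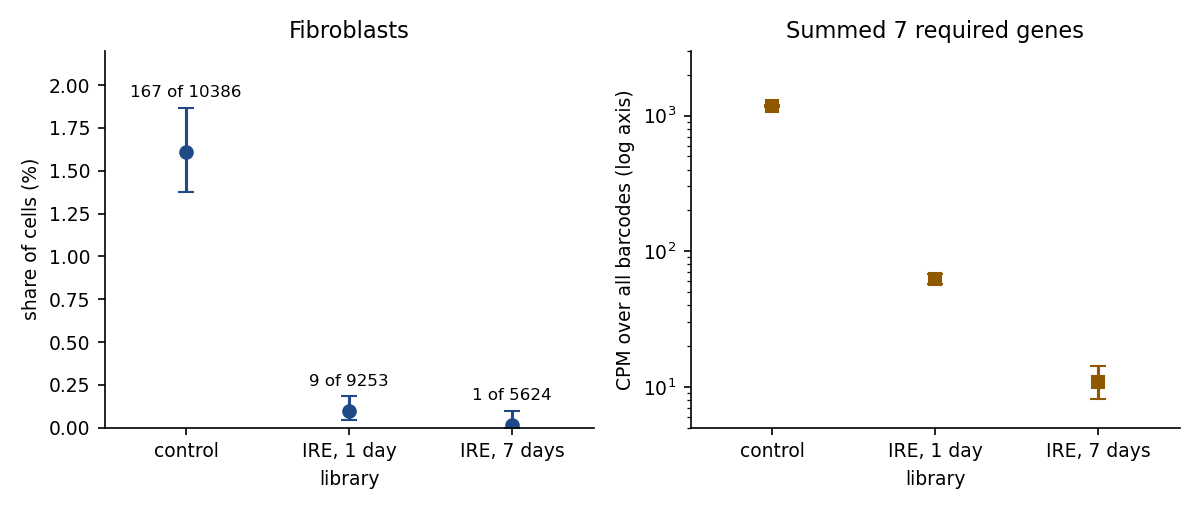
Cells that met the fibroblast rule in each library. The left panel gives their share of cells in percent with exact binomial 95% intervals, 1.61%, 0.0973% and 0.0178%, and the right panel the CPM of the 7 required genes over all barcodes on a log axis with Poisson 95% intervals, 1169, 62.5 and 10.9.

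Because these genes chose the cells, their values in the fibroblasts are a description. In the control, Col3a1 was detected in 165 of the 167 fibroblasts with 1792 UMIs, and Dcn in 160 with 1355 UMIs. Both were found together in 158 fibroblasts, so that a further gene of the set usually decided. Dpt was detected in 89 fibroblasts (292 UMIs), Lum in 87 (221 UMIs), Fbn1 in 76 (146 UMIs), Col14a1 in 71 (137 UMIs) and Mfap5 in 52 (117 UMIs). The 2 genes in the name were therefore not universal: 101 fibroblasts had a UMI of Dpt or Mfap5, of which 40 had both, and 66 had neither. Dpt was found in 53.3% of the fibroblasts and in 0.690% of 2464 control cells with 3 or more macrophage markers, which should lack it, at median depths of 784 and 851.5 UMIs. For Mfap5 these shares were 31.1% and 0.771%. Cells of the fibroblast rule, of the Postn or Aspn gate and of the mesothelial gate were left out of the macrophage marker cells. The selection therefore also limits both genes there. Thinned to 300 UMIs per cell, which left out 3 fibroblasts and 30 macrophage marker cells, Dpt was found in 40.2% (interval 32.7 to 48.2%) and 0.247% (0.0905 to 0.536%) and Mfap5 in 16.5% and 0.164%. Genes of the excluded sets were present at up to 1 gene of each set per cell, with Postn in 29 and Ptn in 21 fibroblasts.

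**Figure D2:**
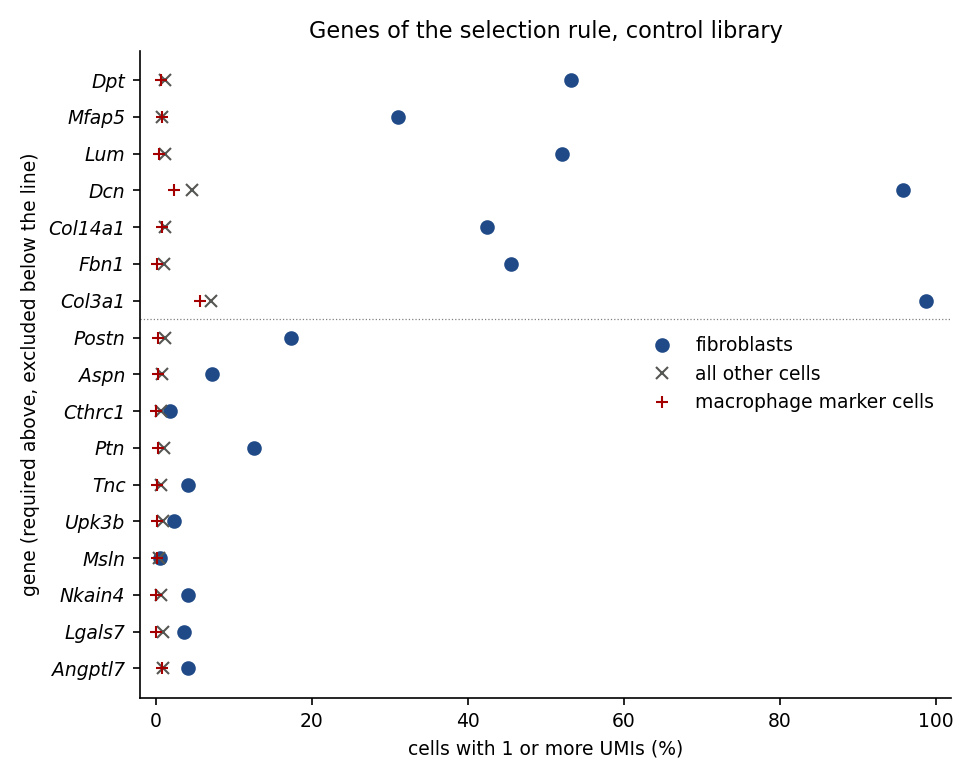
Share of control cells with 1 or more UMIs, in percent, of each gene of the selection rule, for the 167 fibroblasts, all other cells and macrophage marker cells. Col3a1 and Dcn were found in nearly all fibroblasts, 98.8% and 95.8%, and Dpt and Mfap5 in 53.3% and 31.1%.

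Of the control fibroblasts, 67 had exactly 3 of the 7 genes and 13 had all of them. A further 150 control cells had 2 of the 7 and stood just outside the rule. Just inside and just outside, Dpt was at 393 and 74.1 CPM, Dcn at 6056 and 3032 CPM, Col1a2 at 9627 and 4339 CPM, and C3 at 1542 and 1408 CPM. Dpt and Dcn count towards the rule, so that their values here are a description, while Col1a2 and C3 do not. The macrophage markers were at 1715 CPM just inside and 2856 CPM just outside, and the hepatocyte markers at 535 and 229 CPM.

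Beside the genes of the rule, the control fibroblasts were led by matrix proteins, growth factor modulators and regulators of mesenchymal cells. The 25 genes with the highest ratio of CPM to all other control cells, among those with 20 or more fibroblast UMIs, are a description of the chosen cells and were given no test. Among matrix proteins, Cilp, a cartilage matrix protein also found in fibrous tissue, was at 281 CPM (45 UMIs in 25 fibroblasts) against 4.46 CPM in the other cells, a ratio of 63.2 (39.7 to 101). Fbln1, a fibulin of elastic fibres and basement membranes, reached 306 CPM against 6.37 CPM, a ratio of 48.1. Matn2, a matrilin, Mfap4, a microfibril-associated protein, and Col15a1, a collagen of basement membrane zones, had ratios of 33.1, 30.3 and 25.6. Mgp, the matrix Gla protein that inhibits calcification, was the most counted of these genes with 621 UMIs in 99 fibroblasts, and had a ratio of 25.9.

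Enzymes that cut or mature matrix formed a further group, with Mmp2, a gelatinase, at 907 CPM (145 UMIs in 67 fibroblasts) and a ratio of 34.7, Adamts2, which trims procollagen, at 538 CPM (86 UMIs in 55 fibroblasts), and Htra3 and Adamts5 at ratios of 35.1 and 26.0. Modulators of secreted signals were present as Gpc3, a cell surface proteoglycan (ratio 61.0), Smoc2 (46.9), the Wnt-binding proteins Sfrp1 (28.1) and Sfrp2 (25.4), and Figf, which encodes VEGF-D (30.3). Of receptors and regulators, Osr1, a transcription factor of mesenchymal progenitors, had a ratio of 35.1, and Pdgfra, the platelet-derived growth factor receptor of fibroblasts, was at 181 CPM against 7.26 CPM with 29 UMIs in 26 fibroblasts. Clec3b, known from fibroblasts around vessels, was at 269 CPM in the fibroblasts (43 UMIs in 20 cells) and 4.84 CPM in the others, and Colec11 and Cygb, also known from stellate cells, had ratios of 29.5 and 28.5. Against the Postn or Aspn matrix cells, Gpc3 and Fbln1 were 4.96-fold and 4.31-fold higher and Osr1 3.87-fold (20 against 5 UMIs). Pdgfra, Htra3, Clec3b and Mgp were 2.55-fold, 2.42-fold, 2.19-fold and 2.06-fold higher than in those cells. The rest of these genes lay within 2-fold of those cells, with Mmp2 at a ratio of 1.06, Figf at 1.07 and Cilp at 1.41.

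**Figure D3:**
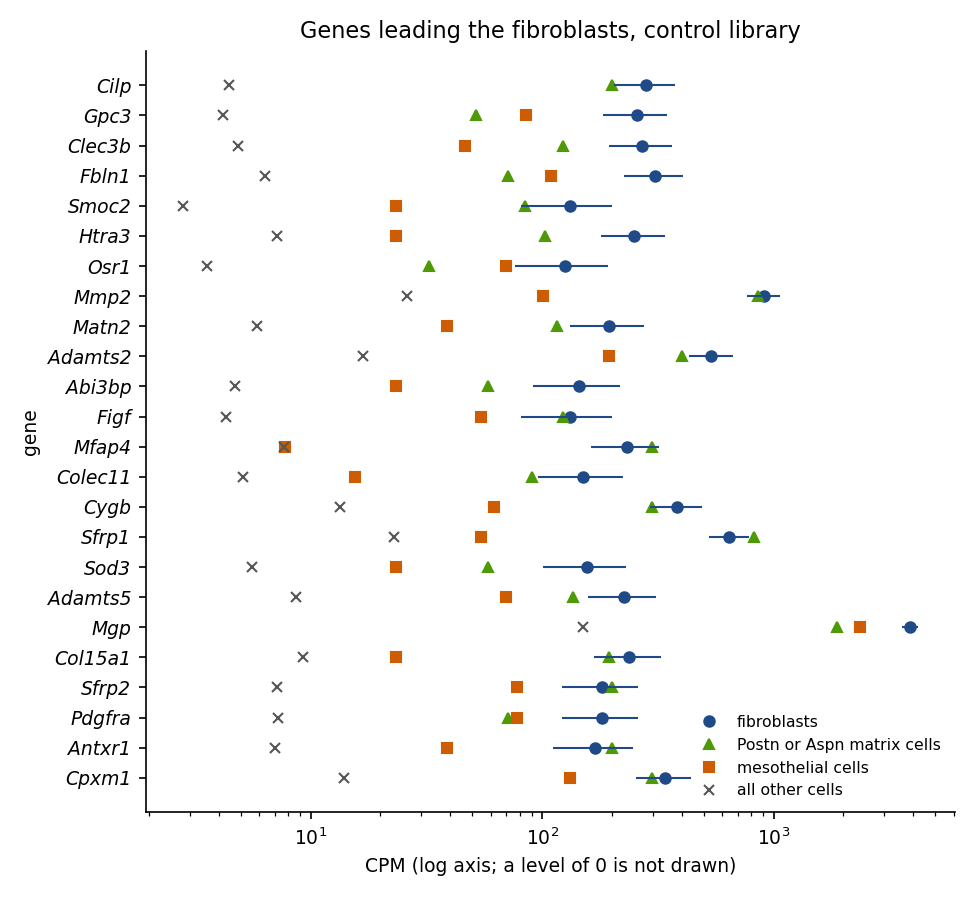
CPM on a log axis of 24 of the 25 leading genes in the control library, with Poisson 95% intervals for the fibroblasts. The fibroblasts stand above all other cells for each gene drawn, from 63.2-fold for Cilp to 24.1-fold for Cpxm1, while the Postn or Aspn matrix cells lie above them for Sfrp1, Sfrp2, Mfap4 and Antxr1.

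The control fibroblasts were first set beside the 89 Postn or Aspn matrix cells, and differed from them in the complement and adventitial fibroblast lists, which were higher, and in the contractile list, which was lower. Of 949 genes with 50 or more UMIs over both groups, outside the 17 genes of the rule, 37 (3.9%) were at least 2-fold higher and 35 (3.69%) at least 2-fold lower in the fibroblasts. The median log2 ratio of all 949 genes was -0.09. The shares of 3.9% and 3.69% are the background for the counts of each list below. These counts come from 1 library, carry no test, and set gated cells of unequal depth side by side, with medians of 784 and 1445 UMIs.

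All 7 complement genes with enough UMIs were at least 2-fold higher in the fibroblasts, with a median log2 ratio of 1.57. C3, the central component of the cascade, had 307 UMIs in 98 of the 167 fibroblasts, or 1920 CPM (interval 1711 to 2147), and 47 UMIs or 304 CPM in the Postn or Aspn matrix cells, a ratio of 6.32 (4.64 to 8.79). C4b, a component of the classical pathway, was 6.29-fold higher (3.21 to 13.7), with 65 against 10 UMIs. C1ra and C1s, the proteases that start that pathway, were 4.98-fold and 2.40-fold higher. Inhibitors of complement were higher as well, Serping1 by 2.43-fold (1.76 to 3.38) and Cd55 by 2.32-fold. Together the complement list took 0.490% of the fibroblast UMIs, 0.131% of those of the Postn or Aspn matrix cells and 0.0977% of those of all other cells, and 144 of the 167 fibroblasts (86.2%) had at least 1 UMI of it. C3 is also made by hepatocytes: it was at 139.7 CPM over the barcodes below 200 genes, and the hepatocyte markers were at 388 CPM in the fibroblasts, 265 CPM in the Postn or Aspn matrix cells and 1320 CPM in all other cells. Mesothelial markers, whose cells also carried C3, were 3.57-fold higher in the fibroblasts than in the Postn or Aspn matrix cells (1.91 to 7.19), with 48 against 13 UMIs, and their part in the result was not tested. Thinned to 300 UMIs per cell, C3 was found in 34.1% of the fibroblasts (26.9 to 41.9%), 7.87% of the Postn or Aspn matrix cells (3.22 to 15.5%) and 3.49% of the macrophage marker cells. Among cells of 1000 or more UMIs on both sides, 61 and 59 cells, 3 complement genes had enough UMIs and 2 of them stayed at least 2-fold higher, Serping1 being the exception. With cells of 2 or more of the 7 required genes taken in, 4 of 7 complement and 2 of 8 adventitial fibroblast genes passed 2-fold.

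Of 7 genes on a list of adventitial fibroblast genes, from the outer layer of vessels, 5 were at least 2-fold higher and none lower. Gsn, the actin-severing protein gelsolin, had 249 UMIs in 74 fibroblasts, or 1557 CPM against 446 CPM, a ratio of 3.49 (2.67 to 4.63). The surface antigens Ly6a and Ly6c1 were 3.07-fold and 7.91-fold higher, with 152 against 48 and 49 against 6 UMIs. Ly6c1 and C4b have near-identical copies, Ly6c2 and C4a, so that their counts are uncertain. Clec3b was 2.19-fold higher (1.25 to 3.98), but fell below 2-fold with equal weight per cell, at a log2 ratio of 0.81. Cd55 is on both lists. The remaining members, Fn1 and Heg1, lay within 2-fold.

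Some immediate early genes and metallothioneins were also higher. Of 8 immediate early genes, which are known to rise within minutes of stimulation and during tissue dissociation, Egr1 was 4.50-fold (2.64 to 8.11), Fos 2.24-fold, Klf6 2.24-fold and Klf9 2.19-fold higher, and the other 4 lay within 2-fold. Of 13 metallothionein and antioxidant genes, 2 passed 2-fold, Mt2 at 9.49-fold (3.80 to 30.5) and Mt1 at 2.17-fold higher, and the median log2 ratio of the list was -0.07. Other genes among the largest differences were Fmo2, a flavin monooxygenase, at 3.50-fold, Akap12, a kinase anchor protein, at 3.79-fold, and Fbln1 at 4.31-fold. With equal weight per cell, Fmo2 fell below 2-fold, at a log2 ratio of 0.69. The neutrophil gene S100a9 was 2.75-fold higher, at 763 against 278 CPM, and at 3877 CPM in the barcodes below 200 genes.

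Several genes of the actin cytoskeleton of contractile cells were lower in the fibroblasts. Of 7 contractile genes, 4 were at least 2-fold lower and none higher. Acta2, the smooth muscle actin of myofibroblasts, had 24 UMIs in 15 fibroblasts and 142 UMIs in the Postn or Aspn matrix cells, which were 6.11-fold higher (3.95 to 9.85). Tagln, Tpm2 and Myl9 were 3.82-fold, 3.71-fold and 2.01-fold higher in those cells, although Myl9 did not reach 2-fold under most of the other settings. The 5 smooth muscle markers, Acta2 among them, had 34 UMIs in the fibroblasts and 200 in the Postn or Aspn matrix cells, which were 6.08-fold higher (4.21 to 9.02), and the part of smooth muscle cells in the result was not tested. Thinned to 300 UMIs, Acta2 was found in 4.88% of the fibroblasts and 16.9% of the Postn or Aspn matrix cells.

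Most of the collagens did not pass 2-fold. Of 12 collagens, Col8a1 and Col16a1 were 13.3-fold (5.82 to 37.2) and 3.04-fold higher in the Postn or Aspn matrix cells, and 10 lay within 2-fold, although summed collagen took 1.85% of the fibroblast UMIs and 3.11% of theirs. Col1a1 stood at 2852 CPM in the fibroblasts and 5298 CPM in the Postn or Aspn matrix cells, and Col1a2 at 11215 and 18762 CPM. The collagen crosslinking enzymes Lox and Loxl2 and the latent TGF-beta binding protein Ltbp2 were 2.33-fold, 2.52-fold and 2.01-fold higher there. Ltbp2 fell below 2-fold with 300 or more detected genes, and Lox without cells carrying 3 or more markers of another class. Their log2 ratios of fibroblasts over Postn or Aspn matrix cells were then -0.92 and -0.83. Fbln1 was the 1 of 11 elastic fibre genes that was higher in the fibroblasts. Thbs2, a thrombospondin of the fibril environment, had 3 UMIs in the fibroblasts and 55 in the Postn or Aspn matrix cells, a ratio of 18.9 (6.15 to 94.6). Vcan, a large proteoglycan, Serpine2, a protease inhibitor, Dkk3, a secreted modulator, Nrep and the imprinted RNA H19 were between 2.27-fold and 4.13-fold higher there.

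The fibroblasts and the 92 mesothelial cells of the control shared a high level of complement genes and differed in collagens, Mmp2, Krt19 and Slpi. Of 844 genes with enough UMIs, 40 (4.74%) were at least 2-fold higher and 42 (4.98%) at least 2-fold lower in the fibroblasts, and the median log2 ratio over all was -0.12. The mesothelial cells had a median of 1169.5 UMIs, and 31 of the control cells with 3 or more of the 7 required genes had been left out of the fibroblasts by the mesothelial set. Of 9 collagens, 4 were at least 2-fold higher in the fibroblasts and none lower: Col6a3 by 4.83-fold, Col5a1 by 3.98-fold (2.34 to 7.15), Col1a1 by 3.14-fold (2.56 to 3.88) and Col1a2 by 2.45-fold. Mmp2 was 8.98-fold higher (5.09 to 17.3), with 145 against 13 UMIs.

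Of 11 growth factors and modulators, 4 were at least 2-fold higher in the fibroblasts and 1, the prostacyclin synthase Ptgis, was lower, being 2.46-fold higher in the mesothelial cells. The median log2 ratio of this list was -0.26. Sfrp1 was 11.9-fold higher (5.55 to 30.2) than in the mesothelial cells, and Gpx3, a secreted peroxidase, Igf1, the insulin-like growth factor, and Ogn, a small proteoglycan, were 4.03-fold, 3.83-fold and 2.72-fold higher. Gsn and Ly6a were higher by 8.36-fold (5.49 to 13.3) and 6.44-fold. The chemokine Cxcl12 was 5.64-fold higher with 49 against 7 UMIs, and Sparcl1, a secreted relative of Sparc, had 58 UMIs against 1, a ratio of 46.7 with a wide interval (8.06 to 1880). Other genes were higher in the mesothelial cells. Krt19, a keratin, had 1 UMI in the fibroblasts and 54 in the mesothelial cells, and the protease inhibitor Slpi had 10 against 188, which is 23.3-fold (12.4 to 49.5). The membrane-cytoskeleton linker Ezr was 8.11-fold higher there and the binding proteins Igfbp5 and Igfbp6 of insulin-like growth factors 9.13-fold and 3.12-fold.

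Complement did not set the fibroblasts apart from the mesothelial cells in 1 direction. The list took 0.490% of the UMIs in the fibroblasts and 0.639% in the mesothelial cells. C3 was at 1920 CPM in the fibroblasts and 3782 CPM in the mesothelial cells, 1.97-fold higher in the latter (1.70 to 2.28). C4b and Serping1 were higher in the fibroblasts by 2.18-fold and 2.02-fold, and C1ra, C1s and Cd55 lay within 2-fold.

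**Figure D4:**
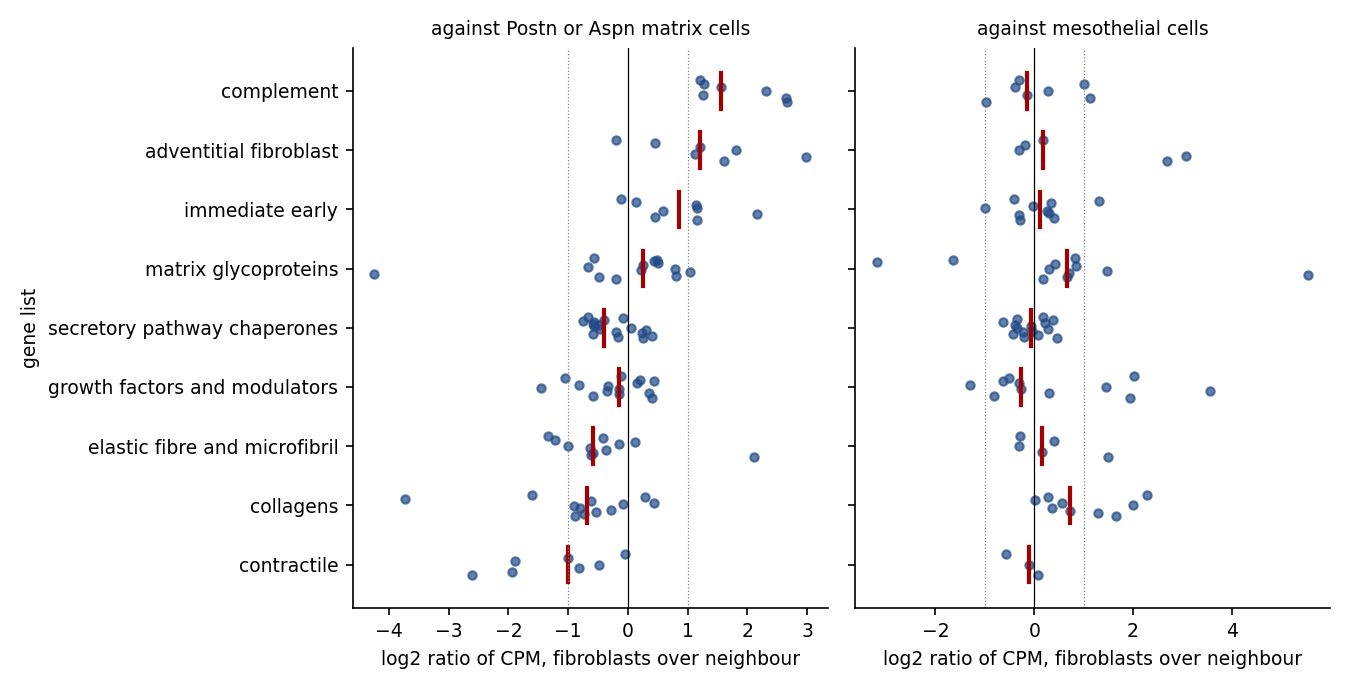
Log2 ratio of CPM of single genes (points) and the median (red line) per gene list in control, for fibroblasts over Postn or Aspn matrix cells (left) and over mesothelial cells (right), with dotted lines at 2-fold. All 7 complement genes lie above 2-fold on the left and 2 of 7 on the right, and 4 of 7 contractile genes lie below 2-fold on the left and none of 3 on the right.

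None of 17 secretory pathway chaperone genes, which serve protein folding on the way to secretion, passed 2-fold against the Postn or Aspn matrix cells and none of 15 against the mesothelial cells, and the list took 1.13%, 1.17% and 1.07% of the UMIs in the fibroblasts and these neighbours, against 0.745% in all other cells. Of 9 transcription factors and 5 mesenchymal receptors with enough UMIs none passed 2-fold against the Postn or Aspn matrix cells. Cell division genes took 0.0963% of the UMIs in the fibroblasts, 0.169% in the Postn or Aspn matrix cells, 0.206% in the mesothelial cells and 0.264% in all other cells. Of 11 interferon-induced genes 1, the GTPase Iigp1, was higher than in the Postn or Aspn matrix cells, by 3.10-fold. Of the lipid genes, 1 of 6 was higher than in the Postn or Aspn matrix cells and 3 of 8 than in the mesothelial cells. Pltp, a phospholipid transfer protein, was 3.39-fold higher than in the Postn or Aspn matrix cells and 3.38-fold higher than in the mesothelial cells, and Lpl and Fabp4, a lipase and a fatty acid carrier, were 2.16-fold and 2.48-fold higher than in the mesothelial cells.

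The control fibroblasts were not uniform. The 101 fibroblasts with a UMI of Dpt or Mfap5 carried more of the vessel-associated genes than the 66 with neither. Detection of Dpt and Mfap5 divided the cells, so that this is a description. The median depth was 680 UMIs with and 891 UMIs without these genes. The list of adventitial fibroblast genes was 2.95-fold higher with Dpt or Mfap5 (2.51 to 3.49), the list of portal fibroblast genes 2.49-fold and complement 2.22-fold (1.89 to 2.62). Clec3b had 43 UMIs in the first set and 0 in the second. Gsn was at 2451 and 353 CPM, a ratio of 6.95 (4.55 to 11.1). Serping1 was 5.28-fold, Fmo2 7.97-fold, Cilp 5.93-fold and Gpx3 3.29-fold higher with Dpt or Mfap5. Collagens differed less, with a ratio of 1.18 (1.10 to 1.27), Col1a2 being at 12189 and 9901 CPM. For Pdgfra, at 174 and 191 CPM, no difference was resolved at this depth, with a ratio of 0.913 and an interval from 0.412 to 2.06.

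Stellate cell genes were mixed. The full list was 1.42-fold higher (1.16 to 1.73) in the fibroblasts with neither Dpt nor Mfap5, and a shorter list of 10 defining markers 2.09-fold higher (1.51 to 2.90). Over all 167 control fibroblasts these markers had 163 UMIs, with a median of 0 and a maximum of 23 per fibroblast. The intervals do not cover this spread between cells. Colec11, a collectin of stellate cells, had 5 UMIs with and 19 UMIs without Dpt or Mfap5, and Rgs5, known from pericytes and stellate cells, had 1 and 20. Cygb went the other way, 2.49-fold higher with Dpt or Mfap5 (1.35 to 4.90), and Sod3 had 18 UMIs with and 7 without. Lrat, the retinol-esterifying enzyme of stellate cells, was rare in both, with 3 and 4 UMIs. Of the 167 control fibroblasts, 8 had 3 or more stellate markers, and 3 of these had Dpt or Mfap5. Ngfr was at 0 in all 167. Mesothelial markers were also higher in the cells with neither gene, by 2.97-fold (1.57 to 5.88), and macrophage markers were at 1264 CPM with and 1821 CPM without Dpt or Mfap5. Their part in these differences was not tested.

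**Figure D5:**
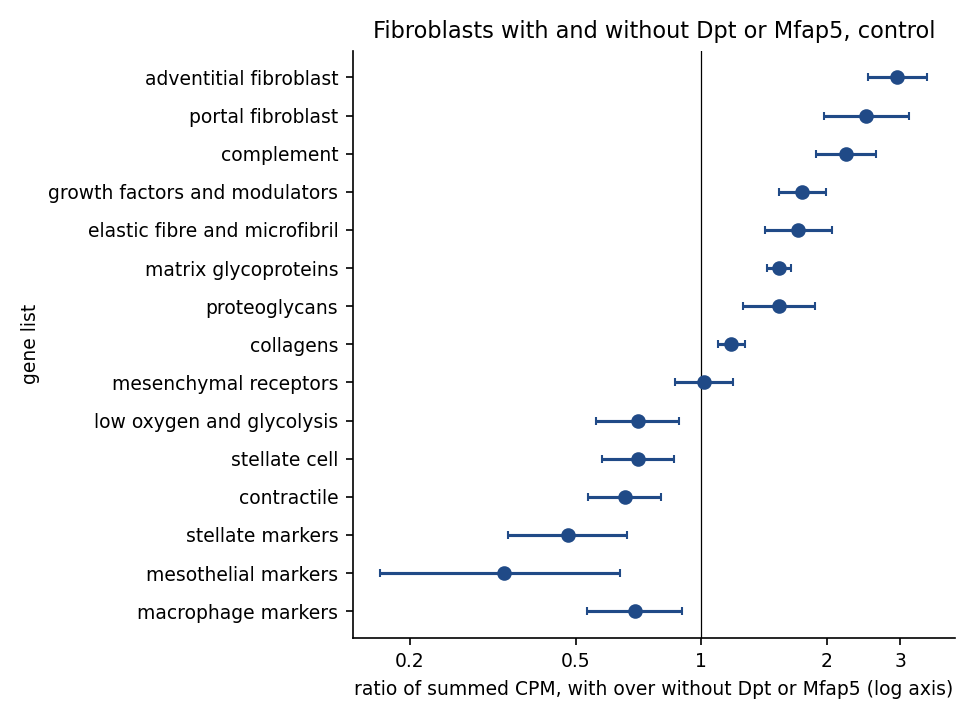
Ratio of summed CPM per gene list on a log axis, for the 101 control fibroblasts with Dpt or Mfap5 over the 66 with neither, with exact 95% intervals. Adventitial fibroblast, portal fibroblast and complement genes lie above 2, and stellate, mesothelial and macrophage markers below 1.

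Markers of 3 mesenchymal or lining cell types stood above their level in all other control cells: stellate markers at 1020 against 132 CPM, mesothelial markers at 300.2 against 104 CPM and smooth muscle markers at 213 against 124 CPM. The 8 mesothelial markers include the 5 excluded genes, which held 36 of their 48 UMIs in the fibroblasts. A fibroblast could have at most 1 of these 5, so that the rule limits the mesothelial level here and above. Markers of blood and vessel cells stood below it. In the control fibroblasts, macrophage markers were at 1501 CPM against 5673 CPM in all other control cells, with all 7 of the measured markers found and 0 to 29 UMIs per fibroblast. Neutrophil markers were at 1670 CPM against 3934 CPM, and 9562 CPM in the barcodes below 200 genes. Endothelial markers were at 419 CPM against 1446 CPM, with Pecam1 at 0. At least 3 markers of a class were found in 15 fibroblasts for macrophages, in 6 for neutrophils, in 6 for endothelial cells and in 1 each for hepatocytes, monocytes and smooth muscle. Epcam, Cd79a and Cd3g were at 0. The part of these cells in the results was not tested beyond leaving them out: among the 139 fibroblasts without them, and 62 of the Postn or Aspn matrix cells, 5 of 5 complement genes were still at least 2-fold higher and 3 of 4 contractile genes at least 2-fold lower.

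The 9 cells that met the rule at 1 day p.i. were too few for fold counts. All 9 carried Dcn (45 UMIs) and Col3a1 (47 UMIs), 8 carried Dpt (24 UMIs), 4 Col14a1, 3 Lum and 2 Fbn1, and Mfap5 was at 0. The deepest cell had 15584 of the 20330 UMIs of these cells, with 17 UMIs of the 7 required genes, 169 of hepatocyte markers and 64 of cholangiocyte markers, among them 19 of Epcam and 14 of Sox9. It had 8 UMIs of collagens beside Col3a1 and 0 of Col1a2, so that its counts go against the name fibroblast. The other 8 cells had 367 to 1027 UMIs, with 110 UMIs of the required genes and 55 of other collagens. Col1a2 was found in 7 of the 9 cells with 34 UMIs, C3 in 5 with 17 UMIs and Gsn in 3 with 9 UMIs. Hepatocyte markers were found in all 9 cells, with 3 to 169 UMIs per cell, and 7 of the 9 had 3 or more of these markers, or 77.8%, beside 80.7% of all other cells at this time. Leaving out cells with 3 or more markers of any other class left 1 of the 9. Smooth muscle markers, Acta2 included, were at 0.

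The single cell at 7 days p.i. met the rule with 2 UMIs of Dcn, 1 of Fbn1 and 2 of Col3a1, and had none of Dpt, Mfap5, Lum or Col14a1. Col1a1 and Col1a2 were at 0 among its 1633 UMIs, while Sparc, a collagen-binding glycoprotein, had 13 and Timp1, an inhibitor of matrix metalloproteinases, had 11. Inflammatory signals were prominent: it held 33 UMIs of Cxcl5, a neutrophil attractant, 13 of Ccl2, a monocyte attractant, and 10 of Il6. Cxcl5 was found in 13 (0.231%) and Il6 in 14 (0.249%) of the 5623 other cells at this time, and Ccl2 in 27.4%. Among the 167 control fibroblasts Cxcl5 was found in 2, Ccl2 in 4 and Il6 in 0. The cell also had 9 UMIs of S100a8 and 8 of S100a9, which were found in 91.3% and 86.2% of the other cells at this time. In all it had 21 UMIs of neutrophil markers, with 4 of the 7 markers found. At least 3 of them were found in 58.1% of the other cells. No level can be given for fibroblasts at 7 days p.i. from a single cell.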

How the data were processed

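The authors aligned Drop-seq reads with STAR (version 2.5.2a in the submitters' processing notes, which name hg19, a human build, although the gene symbols are those of mouse, so that no coordinates are given) and deposited raw UMI counts per gene and barcode, counted, per the file headers, from reads in sense to exons, UTRs included. One library per condition was deposited, each from 3 pooled livers, and barcodes with at least 200 genes were used as cells. The cell rule, the gene lists and the thresholds were chosen with earlier results of these data known.

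UMIs were summed over the chosen cells and divided by all their UMIs (CPM). Shares were given Clopper-Pearson, sums Poisson and ratios conditional binomial intervals at 95%. Genes with 50 or more UMIs over both groups counted as changed past 2-fold, the 17 genes of the rule apart. A gene at 0 on 1 side was set to 3 counts, which gives a lower bound. No fold changes were computed for groups below 20 cells. The text named the genes of the rule, the 25 leading genes, the 10 largest rises and falls per comparison and, per list, up to 6 members by UMIs and any past 2-fold, and some of these genes are not reported here. Doublets were kept, and cells with markers of another class were left out in an alternative. Scripts used Python 3.11.15, numpy 2.4.6, scipy 1.17.1 and pandas 2.3.3, and were tested on simulated data.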

Additional observations from a re-analysis of the deposited data

How the results depend on the processing

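The share of fibroblasts moved with the cell rule. In the control it was 0.963% with 4 or more of the 7 genes, 3.05% with 2 or more, 2.19% with 300 or more detected genes, 1.18% with 100 or more, 2.76% without the exclusions, 0.972% with Dpt or Mfap5 required, 2.26% without cells over 20% mitochondrial and 1.34% without cells carrying 3 or more markers of another class. At 1 day p.i. it was 0.216% with 2 or more genes, 0.188% under the mitochondrial limit and 0.0108% without marker-carrying cells, and at 7 days p.i. it was 0% with 4 or more genes, with Dpt or Mfap5 required and without marker-carrying cells. In each of these settings the control share was the highest. Against the Postn or Aspn matrix cells (37 higher, 35 lower) the counts were 61 and 64 with 2 or more genes, 18 and 17 without marker-carrying cells, 143 and 154 at 20 summed UMIs, 12 and 8 at 100, and 11 higher among cells of 1000 or more UMIs. Against the mesothelial cells (40 higher, 42 lower) they were 173 and 207 at 20 summed UMIs, 15 and 17 at 100, 24 higher without marker-carrying cells and 18 higher at 1000 or more UMIs. The causes were not tested. Of 89 log2 ratios past 2-fold of genes chosen by the naming rule, 39 fell below 2-fold in at least 1 setting, mostly with 2 or more genes (28 of 89, among them Gsn, Clec3b and Serping1) and among cells of 1000 or more UMIs (15 of 89). Of 1022 such values under all settings 912 stayed past 2-fold, 109 fell below 2-fold in the same direction and 1 reversed. The last was Marco against the Postn or Aspn matrix cells, at 0.11 without marker-carrying cells. The depth limit and the mesothelial cells without 3 or more required genes were chosen after seeing the data. With fewer than 20 fibroblasts after injury, fold changes of genes between libraries were not run. No replicate could be left out, and no paired analysis was possible because each condition has 1 library and the labels give no replicate numbers.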
